A study of Mus musculus with 5 samples.

Results

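The genes described here are the mouse zinc finger genes whose symbols run from Zfp900 to Zfp999. They were picked out by symbol alone, and 35 of 24330 symbols in the expression table matched, from Zfp930 to Zfp964. The series mapped the DNA methylation of adipocytes and its dependence on Dnmt1, which copies methylation to new DNA strands. Its RNA-seq part, used here, held 3 libraries of primary adipocytes from the epididymal fat of wild-type C57BL/6 mice aged 17 weeks, called replicates 1, 2 and 3. All 3 carry the same genotype and no treatment is stated. The series also lists 2 bisulfite libraries, 1 from mice with Dnmt1 deleted in adipocytes (Dnmt1 AKO) and 1 from wild type, which were not analysed here. Levels are FPKM, in which the fragments of a transcript are divided by its length and by the total of the library. The table gives no read counts and library depth is therefore unknown.

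Zinc finger genes of this kind often carry a KRAB domain, which recruits the corepressor Trim28 and through it the histone H3 lysine 9 methyltransferase Setdb1 to DNA that the zinc fingers recognise. In the mouse many of these genes lie in clusters of close copies, and their best known targets are endogenous retroviruses and imprinted loci, which stay silent through histone and DNA methylation. Whether each gene encodes a KRAB domain was not analysed here.

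Adipocyte markers were high in every library, with all 7 above FPKM 1, but the preparation held RNA of other cells. All 6 endothelial, 6 macrophage, 5 fibroblast and 5 mesothelial markers reached FPKM 1 in every library, against 45.5% of all symbols. The libraries differed in this mixture. The 7 adipocyte markers summed to 5526, 1791 and 1810 FPKM in replicates 1, 2 and 3, the 6 endothelial markers to 948, 2030 and 1882, and the 5 mesothelial markers to 33.7, 59.4 and 128. The 9 spermatid markers summed to 1238, 21.4 and 9.74 FPKM, and 2 of them, Prm1 and Prm2, reached FPKM 1 in every library. Acrv1 was listed at 0 in replicates 2 and 3. In bulk RNA, fewer cells of a type and less RNA per cell cannot be told apart.

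The promoter windows of 6 members are printed to show the contrasts that the results turn on. Each runs from 250 bases before to 50 bases after a RefSeq transcription start in GRCm38.p6, is written 5′ to 3′ on the strand of the gene, and has its CpG sites in capitals. Zfp948 (chr17:21566728-21567027, plus strand) and Zfp954 (chr7:7121427-7121726, minus strand) were the most highly expressed members, and Zfp936 (chr7:43177340-43177639, plus strand) the least. The windows of Zfp942 (chr17:21962415-21962714, minus strand) and Zfp944 (chr17:22361351-22361650, minus strand) are near copies. Zfp955a (chr17:33255096-33255395, minus strand) has the same 300 bases as Zfp955b.
Zfp948: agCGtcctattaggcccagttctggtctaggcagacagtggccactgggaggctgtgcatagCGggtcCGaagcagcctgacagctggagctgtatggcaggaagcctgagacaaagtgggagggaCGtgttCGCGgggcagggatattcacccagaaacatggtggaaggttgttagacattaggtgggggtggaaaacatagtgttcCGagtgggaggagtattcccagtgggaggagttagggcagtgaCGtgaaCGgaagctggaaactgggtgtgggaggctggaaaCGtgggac
Zfp954: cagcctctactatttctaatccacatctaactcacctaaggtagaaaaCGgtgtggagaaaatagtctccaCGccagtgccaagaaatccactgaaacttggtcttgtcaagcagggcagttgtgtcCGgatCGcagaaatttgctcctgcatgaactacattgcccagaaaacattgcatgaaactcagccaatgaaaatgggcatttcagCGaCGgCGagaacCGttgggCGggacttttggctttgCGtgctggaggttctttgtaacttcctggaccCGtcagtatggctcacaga
Zfp942: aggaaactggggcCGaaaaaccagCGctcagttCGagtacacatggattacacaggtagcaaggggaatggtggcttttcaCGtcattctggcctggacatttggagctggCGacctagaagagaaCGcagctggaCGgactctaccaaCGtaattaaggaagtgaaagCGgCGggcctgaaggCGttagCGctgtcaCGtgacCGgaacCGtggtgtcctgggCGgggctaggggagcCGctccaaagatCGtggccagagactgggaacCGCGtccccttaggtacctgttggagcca
Zfp944: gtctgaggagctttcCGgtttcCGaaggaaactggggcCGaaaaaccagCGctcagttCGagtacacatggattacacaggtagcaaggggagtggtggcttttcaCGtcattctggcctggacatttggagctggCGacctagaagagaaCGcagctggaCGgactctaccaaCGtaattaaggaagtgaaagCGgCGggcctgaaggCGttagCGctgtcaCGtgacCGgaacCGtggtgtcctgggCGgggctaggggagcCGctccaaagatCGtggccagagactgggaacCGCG
Zfp955a: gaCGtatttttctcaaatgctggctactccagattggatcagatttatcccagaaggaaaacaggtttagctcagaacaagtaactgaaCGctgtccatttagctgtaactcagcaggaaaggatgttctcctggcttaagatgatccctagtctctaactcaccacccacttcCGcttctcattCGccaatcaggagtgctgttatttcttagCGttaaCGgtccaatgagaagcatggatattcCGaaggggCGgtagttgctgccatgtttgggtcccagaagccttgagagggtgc
Zfp936: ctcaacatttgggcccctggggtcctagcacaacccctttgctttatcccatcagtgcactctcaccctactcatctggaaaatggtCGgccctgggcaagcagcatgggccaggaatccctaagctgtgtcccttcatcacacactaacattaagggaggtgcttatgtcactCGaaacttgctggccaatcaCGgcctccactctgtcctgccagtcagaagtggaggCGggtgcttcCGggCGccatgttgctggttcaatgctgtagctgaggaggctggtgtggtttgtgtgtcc

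The members were expressed at low levels, from almost nothing to 6.65 FPKM. Of the 35, 24 reached FPKM 1 in replicate 1, 17 in replicate 2 and 13 in replicate 3, and 13 reached it in every library. That is 37.1% of the members, against 45.5% of all symbols and 49.8% of the 325 other numbered Zfp symbols. In single libraries the members' shares were 68.6%, 48.6% and 37.1% in replicates 1, 2 and 3, against 51.5%, 46.3% and 48.1% of all symbols and 59.7%, 53.2% and 54.8% of the other numbered Zfp symbols. The members thus lay above all symbols in replicates 1 and 2 and below them in replicate 3. Over replicates 1 and 2 alone, 17 members (48.6%) reached FPKM 1 in both, against 45.8% of all symbols and 52.0% of the other numbered Zfp symbols, so the lower share than all symbols rested on replicate 3. These differences were not tested. The count was 22 at a threshold of FPKM 0.5 and 4 at FPKM 2. The median member had 1.17, 0.992 and 0.851 FPKM in replicates 1, 2 and 3, and the median symbol 1.19, 0.511 and 0.747 FPKM. On the log2(FPKM + 0.1) scale the median over members was 0.13 ± 0.21 (SD, n = 3), against -0.19 ± 0.54 over all symbols. No member had a mean of FPKM 10 or more, which 23.5% of all symbols and 7.69% of the other numbered Zfp symbols did. The labels do not name separate animals for the replicates, whose spread may therefore be technical.

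**Figure D1:**
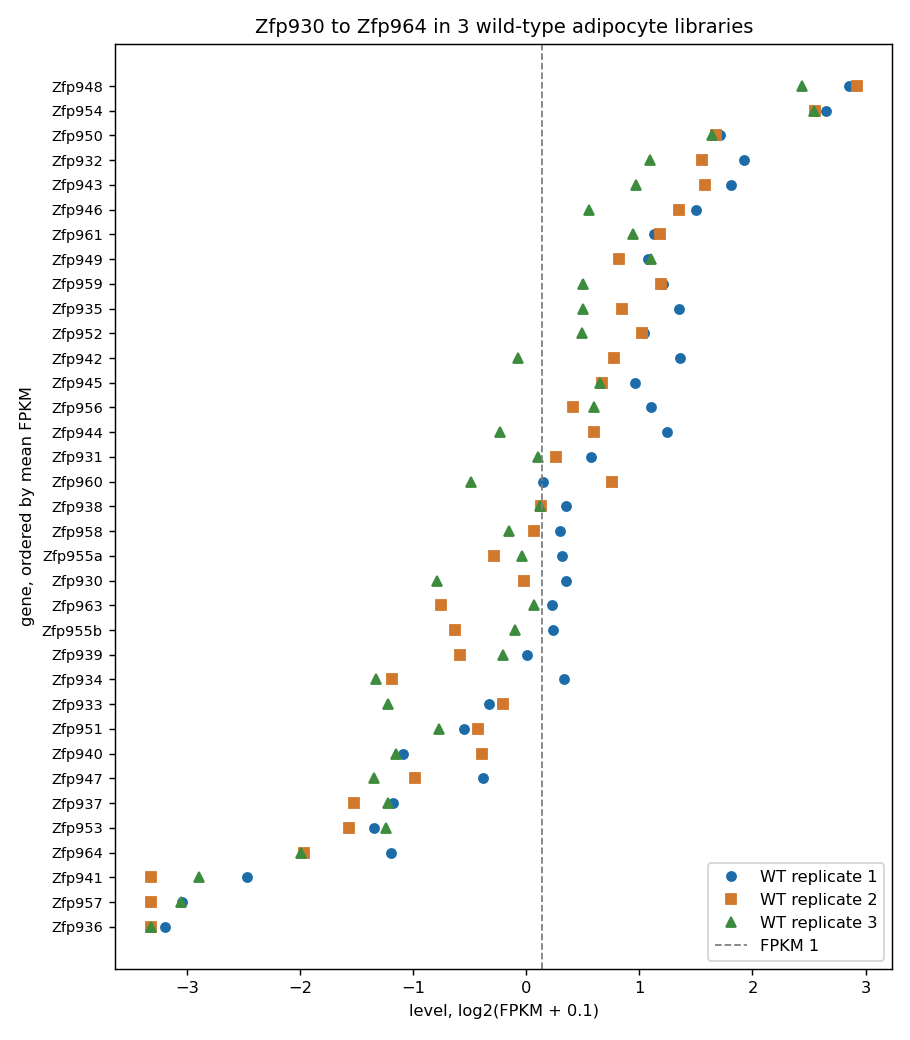
Levels of the 35 members, as log2(FPKM + 0.1), in the 3 wild-type adipocyte libraries, with 1 point per library and genes ordered by mean FPKM. The dashed line marks FPKM 1. Zfp948 and Zfp954 stand at the top and Zfp941, Zfp957 and Zfp936 at the bottom, and in 24 of 35 genes the point of replicate 3 is the lowest. The matching share over all symbols was not counted. It was counted only after centring, for symbols with a mean FPKM of 1 or more, and was 29.0%.

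Zfp948 and Zfp954 led the group. In replicates 1, 2 and 3, Zfp948 (chromosome 17, 21567046 to 21588682) had 7.14, 7.50 and 5.32 FPKM, and Zfp954 (chromosome 7, 7114683 to 7121476) had 6.17, 5.78 and 5.75. Their ranges overlapped and their order changed between libraries, with a log2 ratio of 0.16 ± 0.24 (SD, n = 3). Zfp954 exceeded the next gene, Zfp950, in 3 of 3 libraries, by 0.91 ± 0.026 log2 units. Zfp950 (chromosome 19, 61053840 to 61140840) was the steadiest member, at 3.19, 3.10 and 3.02 FPKM. Its locus overlaps that of Grk5, a G protein-coupled receptor kinase gene, which was far higher at 27.3 ± 9.72 FPKM. The labels do not say whether the libraries kept strand, so reads of these overlapping genes may not be told apart.

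Zfp932 and Zfp961, whose targets were described in mouse embryonic stem cells, were detected in every library. Zfp932, reported to bind and repress endogenous retroviruses (chromosome 5, 109996527 to 110010411), had 3.69, 2.84 and 2.03 FPKM in replicates 1, 2 and 3. Zfp961, reported to bind a primer binding site of retroviruses (chromosome 8, 71951066 to 71970333), had 2.09, 2.17 and 1.83 FPKM. The libraries thus spread widely for Zfp932, with a coefficient of variation of 29.0%, and little for Zfp961, at 8.97%.

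Most other members with a mean of FPKM 1 or more could not be put in an order. Zfp949 stood at 1.91 ± 0.213 FPKM (SD, n = 3), Zfp959 at 1.90 ± 0.509, Zfp935 at 1.82 ± 0.579 and Zfp952 at 1.73 ± 0.370. Zfp956 had 2.05, 1.23 and 1.41 FPKM in replicates 1, 2 and 3, and its locus overlaps that of Zfp783, at 0.398 ± 0.251 FPKM. Zfp931, Zfp960 and Zfp938 lay close to FPKM 1, with means of 1.15, 1.07 and 1.05. Of the 34 pairs of neighbours in the order by mean FPKM, 5 kept 1 order in all 3 libraries and 5 had a mean log2 ratio larger than its SD.

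Of the 17 members with a mean below FPKM 1, 6 reached FPKM 1 in replicate 1 alone and 11 in no library. Those 6 were Zfp958, Zfp955a, Zfp930, Zfp963, Zfp955b and Zfp934. The lowest were Zfp941, with 0.0803 and 0.0345 FPKM in replicates 1 and 3, and Zfp957, with 0.0213 and 0.0201 there. Both were listed at 0 in replicate 2. Zfp936 had 0.00935 FPKM in replicate 1 and was listed at 0 in the others. No member was listed at 0 in all 3 libraries, as 5456 symbols were. A listed 0 in these values can be a failed estimate.

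The machinery that KRAB zinc finger proteins work through was expressed throughout, mostly above the members. All 18 genes of a list of corepressor and silencing genes reached FPKM 1 in every library, against 45.5% of all symbols. Of the members, 32 of 35 had a mean below the lowest mean of that list. Trim28, the corepressor itself, had 33.9, 35.4 and 42.6 FPKM in replicates 1, 2 and 3, which was 4.75, 4.72 and 7.41 times the highest member. The 35 members together summed to 60.3, 51.2 and 41.5 FPKM, so that Trim28 alone was 0.563, 0.691 and 1.03 times their sum. In replicate 3 the sum of the members was lowest and Trim28 highest.

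Among the partners of Trim28, Setdb1 stood at 6.42 ± 0.669 FPKM (SD, n = 3) and its cofactor Atf7ip at 7.36 ± 0.0328. The heterochromatin proteins Cbx3, Cbx1 and Cbx5 stood at 27.2 ± 3.54, 10.6 ± 2.86 and 4.37 ± 0.466, and Chd3, a helicase of the NuRD complex, at 9.21 ± 2.45. The relatives of Trim28, Trim24 and Trim33, stood at 18.1 ± 3.32 and 3.69 ± 0.332. Ehmt2 and Ehmt1, which methylate the same histone residue, stood at 33.1 ± 2.89 and 7.39 ± 0.593, so Ehmt2 was near Trim28. Of the genes of the HUSH silencing complex, Pphln1 stood at 7.74 ± 0.505, Mphosph8 at 6.15 ± 0.805 and Tasor, listed as Fam208a, at 3.52 ± 0.303. Morc2a, an ATPase that works with HUSH, stood at 9.53 ± 0.472, and the related Morc3 at 6.76 ± 0.412. Smarcad1, a chromatin remodeller, was the lowest at 3.00 ± 0.302. Resf1, listed as 2810474O19Rik, had 6.27, 3.20 and 2.71 FPKM in replicates 1, 2 and 3.

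Of 4 KRAB zinc finger genes outside this number range with known targets, all reached FPKM 1 in every library, against 45.5% of all symbols. Zfp445 and Zfp57, which maintain imprints, stood at 6.07 ± 0.779 and 2.28 ± 1.06 FPKM (SD, n = 3). Zfp809, which silences murine leukaemia virus, had 6.43, 4.31 and 4.28 FPKM in replicates 1, 2 and 3, and Zfp568, a repressor of a placental promoter of Igf2, averaged 1.26 ± 0.0977. The highest members, Zfp948 and Zfp954, thus stood in the same range as Zfp445 and Zfp809.

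The members lay on 12 chromosomes, with 12 of 35 on chromosome 17. This count and the clusters below cover only the symbols that matched. RefSeq names 29 more genes of the range that are not rows by that symbol, most of them on chromosomes 2 and 4. Joining members whose loci lie within 1 Mb of each other gave 3 clusters of at least 3 members, which held 13 of 35. The largest, of 7 members, spans 1300 kb of chromosome 17 (21567046 to 22867134). A second on chromosome 17 (32993139 to 33304689) holds Zfp952, Zfp955a and Zfp955b, and the third, on chromosome 8 (69209046 to 69749962), holds Zfp930, Zfp964 and Zfp963. FPKM 1 was reached in every library by 5 of the 13 members in clusters and by 8 of the 22 outside them, and the medians of their mean FPKM were 1.48 and 1.00.

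Within a cluster, levels differed widely. In the cluster of 7, means ran from 0.455 FPKM for Zfp947 to 6.65 for Zfp948, a range of 14.6-fold. Zfp943 had 3.40, 2.89 and 1.85 FPKM in replicates 1, 2 and 3, Zfp946 had 2.73, 2.45 and 1.37 and Zfp945 had 1.84, 1.49 and 1.47. The lowest, Zfp947, had 0.668, 0.404 and 0.293 FPKM. All 7 genes were lowest in replicate 3, with and without centring. After centring, 29.0% of all symbols with a mean of FPKM 1 or more were lowest there, a filter that Zfp947 does not pass. The 11 other symbols within that span included 4 numbered Zfp genes and 2 vomeronasal receptor genes, Vmn2r111 and Vmn2r112, listed at 0 in every library. The span also holds 3110052M02Rik, 2210404O09Rik and Gm4944, older symbols of Zfp983, Zfp995 and Zfp994, which are genes of the same range. Of these, 2210404O09Rik had 1.06, 0.480 and 0.611 FPKM in replicates 1, 2 and 3. It was not lowest in replicate 3, while 3110052M02Rik and Gm4944 were. In the cluster on chromosome 8 the members' means ran from 0.214 FPKM for Zfp964 to 0.846 for Zfp930, and none reached FPKM 1 in every library.

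**Figure D2:**
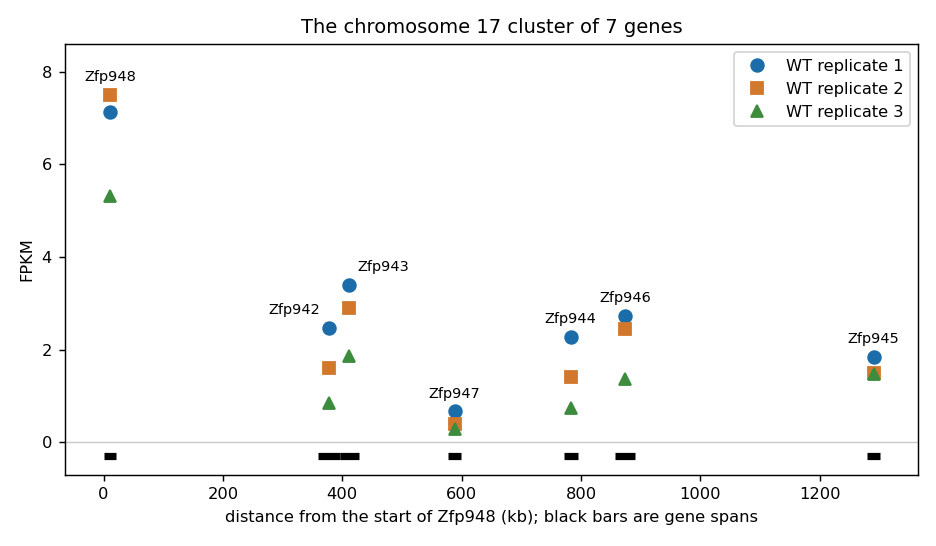
FPKM of the 7 members of the chromosome 17 cluster in the 3 wild-type libraries, against distance in kb from the start of Zfp948. Black bars are the spans of the genes. Zfp948 is the highest at 5.32 to 7.50 FPKM, and for each gene the triangle of replicate 3 is the lowest point. After centring, 29.0% of all symbols with a mean FPKM of 1 or more were lowest in replicate 3.

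Within that cluster 2 pairs of genes start head to head. Zfp942 and Zfp943 are transcribed away from each other from starts 95 bases apart, and 194 bases of their promoter windows are the same DNA read on opposite strands. Zfp944 starts 63 bases from Zfp758, a numbered gene below the range. Zfp942 and Zfp944 moreover have near-identical windows, with 274 of 275 aligned bases the same, as the printed sequences show, where the start of the Zfp942 window recurs inside that of Zfp944. That is 91.3% of the 300 bases, against a median of 52.7% over the 496 pairs of members.

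Zfp942 and Zfp944, whose promoter windows are near copies, had closely similar values. Zfp942 had 2.46, 1.61 and 0.851 FPKM in replicates 1, 2 and 3, and Zfp944 had 2.27, 1.42 and 0.750, a log2 ratio of 0.15 ± 0.031 (SD, n = 3). The transcripts of these genes were not compared here. How the authors divided reads between genes with near-identical transcripts was not stated, so the separate values of any such genes are uncertain. Zfp943 was higher than its head-to-head partner Zfp942 in 3 of 3 libraries, by 0.77 ± 0.30 log2 units. Zfp944 and its partner Zfp758 had no common order, with a ratio of 0.055 ± 0.53, and Zfp758 stood at 1.34 FPKM on average.

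Zfp955a and Zfp955b, with identical windows on opposite strands and loci 34.4 kb apart, were also alike. Zfp955a had 1.14, 0.718 and 0.875 FPKM in replicates 1, 2 and 3, and Zfp955b had 1.08, 0.547 and 0.834, a log2 ratio of 0.16 ± 0.16. Both were lowest in replicate 2. In an exact two-sided sign-flip permutation test over the 3 libraries, the ratios of Zfp943 over Zfp942, Zfp942 over Zfp944 and Zfp955a over Zfp955b each had p = 0.25, or 0.333 after Benjamini-Hochberg adjustment over these 3 pairs and that of Zfp944 over Zfp758, which had p = 1. With 3 libraries 0.25 is the smallest p this test can give.

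Most of the better expressed members had their lowest level in replicate 3. This pattern was noticed in the values and then counted. After centring each library on its median over symbols with a mean FPKM of 1 or more, 16 of the 18 members with such a mean were lowest in replicate 3, against 29.0% of all symbols and 34.8% of the other numbered Zfp symbols with such a mean. Over all symbols with a mean from FPKM 1 to that of Zfp948 the share was 30.3%. The exceptions among the 18 were Zfp949 and Zfp956. The median of replicate 3 minus the mean of replicates 1 and 2 was -0.56 log2 units over these 18, 0.036 over the other numbered Zfp symbols and 0.021 over all symbols. Between replicates 1 and 2 the members went both ways after centring. Replicate 1 minus replicate 2 had a median of 0.017 over the 18, with 10 above 0, and ran from -0.82 for Zfp960 to 0.48 for Zfp956. The median was -0.051 over all symbols with such a mean, for which the share above 0 was not counted. Without centring, all of the 18 but Zfp948, Zfp961 and Zfp960 were higher in replicate 1 than in replicate 2.

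The size of this difference varied between genes. It was -1.22 log2 units for Zfp944, -1.21 for Zfp942, -1.01 for Zfp960 and -0.94 for Zfp946, but -0.12 for Zfp954 and -0.12 for Zfp950. Chromosome 17 held the 4 with the largest differences among these 18, and all 9 of its members with a mean of FPKM 1 or more were lowest in replicate 3, as were 7 of 9 on other chromosomes. Among members with a mean below FPKM 1, the difference ran from -1.02 for Zfp930 to 0.27 for Zfp963, both on chromosome 8. It was also -1.02 for Zfp933 on chromosome 4. Without the 7 members of the chromosome 17 cluster, 10 of 12 were lowest there. In the cluster span, the 2 other symbols with such a mean, Zfp758 and Gm4944, an older symbol of Zfp994, were also lowest in replicate 3 after centring, although Zfp758 had 1.85, 1.02 and 1.15 FPKM in replicates 1, 2 and 3. In the span of the chromosome 8 cluster the 2 such symbols, Zfp868 and Zfp869, were lowest there as well, with differences of -0.40 and -0.44 log2 units. Of the 18 corepressor and silencing genes, 9 were lowest in replicate 3 after centring, against 29.0% of all symbols with a mean of FPKM 1 or more. Without centring, Cbx3, Smarcad1, Resf1, Mphosph8 and Tasor stayed lowest there, while Cbx5, Morc3, Pphln1 and Trim33 were lowest in replicate 2. On the centred scale, 7 of 7 adipocyte and 5 of 6 macrophage markers were also lowest in replicate 3, as were 6 of 9 spermatid markers. None of the 6 endothelial, 5 fibroblast and 5 mesothelial markers was. Without centring, the adipocyte markers summed to 5526, 1791 and 1810 FPKM in replicates 1, 2 and 3, and the mesothelial markers were highest in replicate 3. Mrc1 was then the only macrophage marker lowest in replicate 3. Of the adipocyte markers, Lep, Pparg and Retn were lowest there, and Adipoq, Plin1, Cidec and Lipe in replicate 2. The part of the cell mixture in the difference was not tested.

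**Figure D3:**
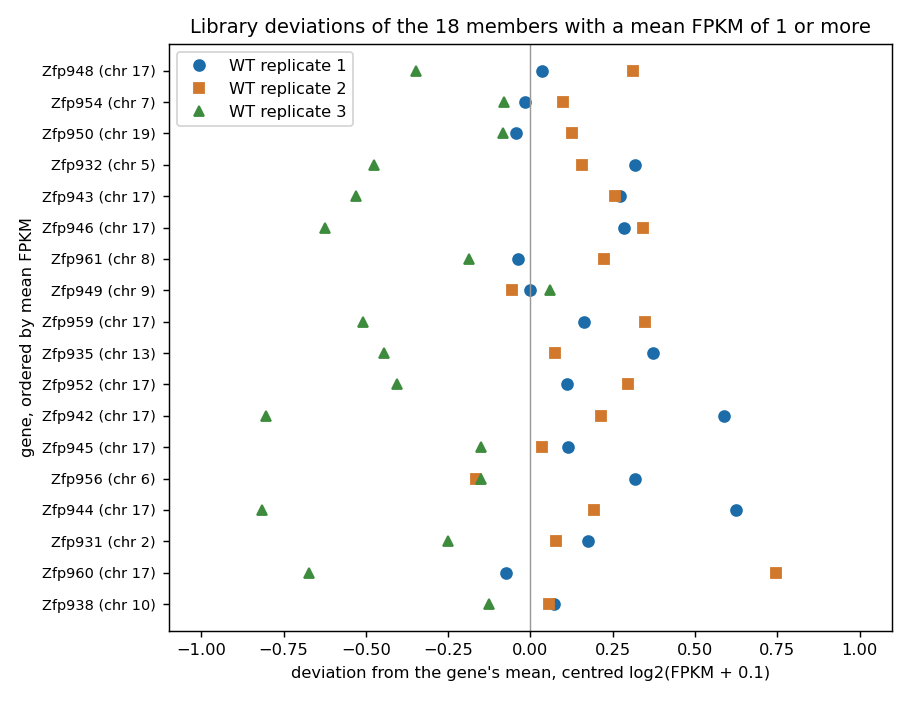
Deviation of each library from the mean of the gene, in centred log2(FPKM + 0.1), for the 18 members with a mean FPKM of 1 or more, ordered by mean FPKM and with the chromosome beside the symbol. The triangle of replicate 3 is the lowest point in 16 of 18 genes, the exceptions being Zfp949 and Zfp956. The share over all symbols with such a mean was 29.0%.

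Genes of the same number range that the table lists under older symbols were counted in the same way. RefSeq names 64 genes in the range, of which 29 are not rows by that symbol, and 22 of these were found under an older one. Of those 22, 7 reached FPKM 1 in every library, and all 9 with a mean of FPKM 1 or more, Gm4944 among them, were lowest in replicate 3 after centring. They included Zfp970, listed as Gm14420, at 14.2, 6.10 and 6.38 FPKM in replicates 1, 2 and 3, and Zfp979, listed as 2610305D13Rik, at 5.16, 9.78 and 4.21. By mean FPKM, Zfp970 at 8.88 and Zfp971, listed as Etohi1, at 6.96 lay above Zfp948 at 6.65, but in replicate 2 Zfp948 was higher than both. Without centring, the lowest FPKM of Zfp970 was in replicate 2. So was that of Zfp972, listed as C330013J21Rik, at 2.74, 1.37 and 1.41 FPKM in replicates 1, 2 and 3.

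Replicate 1 had the highest sums of adipocyte and spermatid markers, but few members stood apart in it. Only Zfp934 was over 2-fold higher in replicate 1 than in both others after centring, 1 of 35 members, against 9.18% of all symbols. Zfp934 (chromosome 13) had 1.16, 0.340 and 0.297 FPKM in replicates 1, 2 and 3, and with a pseudocount of 1 no member passed that fold. Its neighbour Zfp935 on the same chromosome had 2.45, 1.70 and 1.31. No member was over 2-fold lower in replicate 1, against 1.64% of all symbols. Before centring, 27 of 35 members (77.1%) had their highest FPKM in replicate 1, against 41.8% of all symbols and 46.8% of the other numbered Zfp symbols. The spermatid markers were also highest there, and the part of such RNA in these values was not tested.

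The median promoter of the members held fewer CpG sites than that of all genes. RefSeq gave a window for 32 of 35 members, all but Zfp930, Zfp934 and Zfp960. The ratio of observed to expected CpG, which is near 1 where CpG sites are not depleted, had a median of 0.477 over these 32, from 0.182 for Zfp931 to 0.907 for Zfp944. The median was 0.583 over the 17187 symbols with a window and 0.668 over the other numbered Zfp symbols. The members held 3 to 24 CpG sites in 300 bases, with a median of 9, against a median of 14 over all symbols and 16 over the other numbered Zfp symbols. These differences were not tested.

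CpG content and level went together only loosely among the members. Members detected in every library had a median ratio of 0.524 (13 genes) and the other members 0.446 (19 genes). With detection at FPKM 2 the difference of these medians was -0.025. Over all symbols the medians were 0.779 for those detected in every library and 0.279 for the others, so the gap was much wider there. The rank correlation of CpG ratio with mean FPKM was 0.312 over the 32 members and 0.559 over all symbols, a description across genes, which are not independent replicates. The 3 lowest members, Zfp936, Zfp957 and Zfp941, had 6, 4 and 5 CpG sites and ratios of 0.259, 0.242 and 0.274. The highest, Zfp948 and Zfp954, had 10 and 11 sites and ratios of 0.485 and 0.628. Zfp964, at 0.214 FPKM, had the most sites, 24, with a ratio of 0.816, and Zfp931, with the fewest, stood at 1.15 FPKM. The methylation of these sites was not analysed here.

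**Figure D4:**
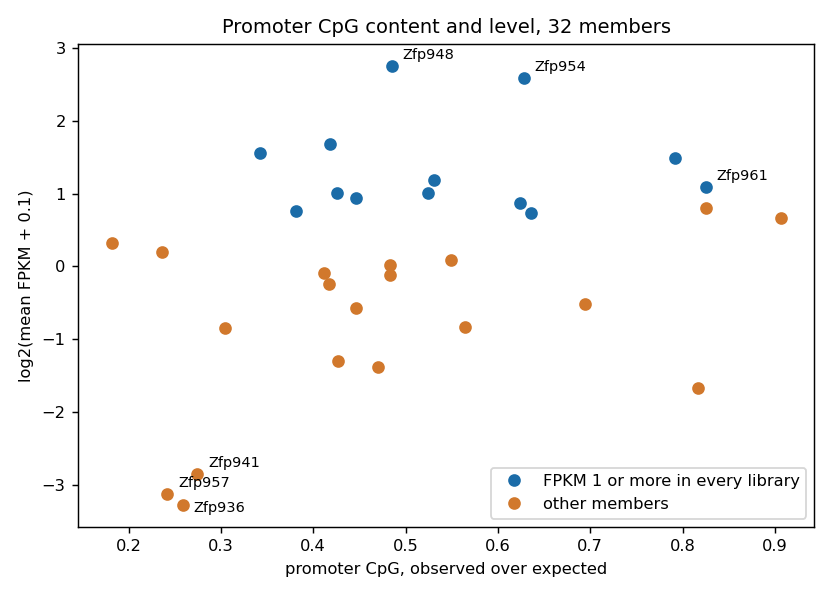
Level, as log2(mean FPKM + 0.1), against the observed over expected CpG ratio of the promoter window for the 32 members with a window, 1 point per gene. Blue points reached FPKM 1 in every library and orange points did not. The 3 lowest genes have ratios of 0.242 to 0.274, while the other genes span 0.182 to 0.907.

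Short motifs, none contained in another, were searched on both strands of the windows. The letters CCGGAAG, the core of ETS factor sites, were in 6 of 32 members, or 18.8%, against 11.9% of all symbols and 21.1% of the other numbered Zfp symbols. The letters GGGCGG, known from SP1 sites, were in 12 of 32, or 37.5%, against 47.1% and 46.8%. GCATGCGC, from the site of NRF1, and AAGATGGCG, from that of YY1, were in none of the 32 windows, against 3.71% and 2.0% of all symbols and 6.79% and 3.4% of the other numbered Zfp symbols. A match of letters is a description of the sequence, not a binding site.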

How the data were processed

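RNA-seq of 3 wild-type libraries was used. The values are FPKM that the authors deposited as 1 table with 1 column per library. Per the submitters' processing notes, Trim Galore 0.5.0, Bismark 0.22.1 and featureCounts were used, with the builds GRCm38 and mm10, without a stated role. The program behind the FPKM was not given in the sources used here. Columns were matched to libraries by the name in the sample description. Of 24889 rows, 27 with a calendar date for a symbol were left out. Symbols with more than 1 row, 273 in all, were represented by their highest row by mean, and no member had more than 1 row. No row above 0 had equal values in any pair of libraries. Locus starts count from 0 in the table and are given counted from 1. All 35 members matched a RefSeq symbol, and for 14 the start equalled that of the gene in GRCm38.p6.

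Detection meant FPKM 1 or more. Log2 values are log2(FPKM + 0.1), which understates ratios of low genes. Promoter windows came from RefSeq, taking the start nearest the 5′ end of the locus in the table, and were aligned globally with Biopython 1.88. Other software was numpy 2.4.6, scipy 1.17.1, pandas 2.3.3, matplotlib 3.10.9 and Python 3.11.15. The counting steps were tested on simulated data. The rule for members uses symbols and no measured value, but this number range and the gene lists were chosen with earlier results of these data known. The rule for named genes took all members with a mean of FPKM 1 or more, the extremes of each cluster, members at 0 and past 2-fold in replicate 1, and the corepressor list. Other members were named after their values were seen. Alternatives covered the threshold, pseudocount, centring, filters, TPM, cluster gap and leaving out each library.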

Additional observations from a re-analysis of the deposited data

How the results depend on the processing

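The count of members detected in every library, 13, followed the threshold. It was 22 at FPKM 0.5, 4 at FPKM 2 and 23 after rescaling to TPM, which raises every value. It was 13 without replicate 1 or replicate 2 and 17 without replicate 3. The median level over members, 0.13, was 1.00 with a pseudocount of 1, 0.91 among members with a mean of FPKM 1 or more and 1.05 in TPM. It ranged from 0.027 to 0.24 when 1 library was left out. The count over 2-fold higher in replicate 1, which is Zfp934, became 0 with a pseudocount of 1 and 0 among members with a mean of FPKM 1 or more. The count lowest in replicate 3, 16 of 18, was 16 without centring, 17 with a pseudocount of 1, 24 of 35 over all members and 10 of 12 without the chromosome 17 cluster. Those settings were chosen after seeing the data. The share over all symbols was not counted without centring, with a pseudocount of 1 or without the filter on the mean. The difference in median CpG ratio between detected and other members, 0.078, was 0.058 with detection at FPKM 0.5 and -0.025 at FPKM 2, so its sign depended on the threshold. Cluster membership stayed at 13 with a gap of 500 kb or 2 Mb and was 15 with clusters of 2. Zinc finger and KRAB patterns in proteins were planned and not run, as protein sequences were not used here. No paired analysis was possible because all 3 libraries belong to 1 group. Depth is unknown, so counting error at these low levels could not be given.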
